A study of Mus musculus with 2 samples.

Results

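Transcripts of the cell cycle and of DNA repair carried deposited YTHDF2 peaks in C2C12 myotubes: Cenpf, Depdc1a, Brca2, Brcc3, Rb1 and Cdkn1b. The 6 genes were chosen by name from the authors' table of peaks paired with genes, with results of these data known, so that they hold a peak is not a finding. Their rows in that table, 11 of its 1541 peaks and 6 of its 1285 genes, were joined by every peak of the full list that overlapped their mm10 gene bodies, which gave 17 of 9271 peaks. C2C12 is a mouse myoblast line whose cells withdraw from the cell cycle and fuse into multinucleated myotubes in low serum. Both libraries came from wild-type cells of this 1 line, kept in 2% horse serum for 4 to 5 days. Fetal bovine serum at 10% is also listed for both, with no other treatment. Both were taken as 1 batch. One library held RNA recovered with an antibody to YTHDF2 (RNA immunoprecipitation, RIP), and the other was the input. An IgG control is named in the study design and was not analysed here. Setting RIP against input asks which stretches of which transcripts YTHDF2 occupied. With 1 library on each side there is no replicate spread, so no test was made.

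YTHDF2 is a cytoplasmic protein that binds N6-methyladenosine (m6A), a methyl mark on adenosines within mRNA, and recruits the deadenylation machinery, which shortens the life of the bound transcript. The mark sits mainly in long internal exons, around stop codons and in 3′ UTRs, most often at the A of GGAC. Cell cycle transcripts are made and cleared in waves, and myoblasts leave the cell cycle for good when they fuse. Among the 6 genes, Cenpf and Depdc1a encode proteins of dividing cells, Brca2 and Brcc3 encode repair proteins, and Rb1 and Cdkn1b encode proteins that hold the cycle at rest.

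The values below are those at the summit of each peak. RIP fragments were read from the deposited pileup, in which 1 fragment is a step of 0.9, and the input background was computed from pileup and fold enrichment. Fold enrichment is the authors' linear ratio of RIP pileup to input background, with 1 added to each, and ranks run within the deposited lists. The 95% intervals in brackets are exact Poisson intervals of the number of RIP fragments, with the background held fixed. Only counting error on the RIP side is in them, and copies made by PCR are not independent molecules. The total depth of either library is unknown. Over the whole gene table the median peak held 57 RIP fragments over a background of 15, with a median fold enrichment of 3.25 (quartiles 2.42 and 4.53). The 11 table peaks of the 6 genes held 20 to 107 fragments over backgrounds of 1.08 to 42, with fold enrichments of 2.07 to 11.3 and a median of 3.80. Of these 11, 7 lay above the table's median fold enrichment and 4 lay below it.

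The sequences under the coding peaks are shown first, as stretches inside peaks of RIP over input. They are given 5′ to 3′ on the strand of the gene from RefSeq GRCm38.p6, the build of mm10. For Brcc3 peak 1 the summit lay in intron 1, outside the bases shown. Capitals mark GGACT and its forms GGACA and GGACC, which cannot overlap each other and were searched on the strand of the gene. The set comprises the first coding bases of Cenpf and of Brcc3, the Cenpf peaks of highest fold enrichment and of smallest q-value, and the only Brca2 peak.
Cenpf peak 1, coding part, chr1:189684945-189685106: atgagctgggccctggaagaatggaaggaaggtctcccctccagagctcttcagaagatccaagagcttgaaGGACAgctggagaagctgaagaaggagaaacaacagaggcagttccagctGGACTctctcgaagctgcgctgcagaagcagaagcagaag
Cenpf peak 2, chr1:189680254-189680458: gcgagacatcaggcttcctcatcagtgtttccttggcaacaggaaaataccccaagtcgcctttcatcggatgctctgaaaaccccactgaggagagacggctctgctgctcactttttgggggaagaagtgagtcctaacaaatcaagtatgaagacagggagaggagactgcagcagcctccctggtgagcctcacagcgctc
Cenpf peak 5, chr1:189653582-189653854: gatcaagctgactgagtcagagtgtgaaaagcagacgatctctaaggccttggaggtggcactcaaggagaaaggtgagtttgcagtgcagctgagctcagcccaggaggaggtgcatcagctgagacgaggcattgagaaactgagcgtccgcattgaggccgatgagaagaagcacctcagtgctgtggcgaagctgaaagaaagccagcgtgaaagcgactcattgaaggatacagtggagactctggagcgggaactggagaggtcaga
Brca2 peak, chr5:150554216-150554500: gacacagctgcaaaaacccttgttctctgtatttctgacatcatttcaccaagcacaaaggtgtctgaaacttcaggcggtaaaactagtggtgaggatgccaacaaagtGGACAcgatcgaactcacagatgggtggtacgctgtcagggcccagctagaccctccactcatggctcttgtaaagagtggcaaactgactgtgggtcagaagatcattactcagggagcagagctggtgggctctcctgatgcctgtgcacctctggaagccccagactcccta
Brcc3 peak 1, coding part, chrX:75416719-75416841: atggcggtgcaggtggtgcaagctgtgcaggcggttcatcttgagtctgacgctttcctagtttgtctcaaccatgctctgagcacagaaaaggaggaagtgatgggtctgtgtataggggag
Cenpf lies on the minus strand, and Brca2 and Brcc3 lie on the plus strand. The Cenpf start codon opens the first of these sequences and the Brcc3 start codon opens the last. The GGAC forms appear in the first Cenpf sequence and in Brca2, and in none of the other 3.

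Cenpf, a very large coiled-coil protein of the kinetochore and nuclear envelope that accumulates in late interphase and mitosis, had the most table peaks of the 6 genes. Its gene lies on the minus strand at chr1:189640606-189688086, and all 5 of its peaks had their summits in coding exons of its 11130-base mRNA. Genes with 5 or more table peaks made up 0.0273% of protein-coding genes, 6 of 21938, and 0.467% of the 1284 table genes with a gene model. Cenpf was chosen with its count known, so these shares only describe it. Peak 1 (chr1:189684914-189685113) covered the start codon in exon 2 and held 20 RIP fragments over an input background of 4, a fold enrichment of 3.80 (2.40 to 5.76). It was 169 bases exonic and ran 31 bases into the next intron. Peak 2 (chr1:189680254-189680458), inside exon 6 at base 687 of the coding sequence, held 21 fragments over a background of 1.10. Its fold enrichment of 9.49 (6.05 to 14.3) was rank 22 in the table, the highest of the gene.

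The other 3 Cenpf peaks lay in exons 12 and 13, which together are 6260 bases long, 56.2% of the mRNA. Peak 3 (chr1:189656757-189657103), at 51.2% of the coding sequence, held 35 fragments over a background of 12, a fold enrichment of 2.50 (1.76 to 3.45). Peak 4 (chr1:189654173-189654583), at 62.1%, held 61 fragments over 26, a fold enrichment of 2.07 (1.59 to 2.65). Peak 5 (chr1:189653582-189653854), at 70.9%, held 102 fragments over 19.5, a fold enrichment of 4.52 (3.69 to 5.48). Peak 5 was thus the deepest of the gene in RIP fragments and had the smallest q-value of all 17 peaks, a −log10 q-value of 26.2 and rank 50 in the table, although its fold enrichment was below that of peak 2. The intervals of peaks 3 and 4 overlapped each other and lay below that of peak 5, and the interval of peak 2 lay above all of the others. Of the 379 genes with an mRNA of 10000 bases or more, 53 had a table peak, which is 14.0%, 36 of them had 1, and 2 had 5 or more.

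**Figure D1:**
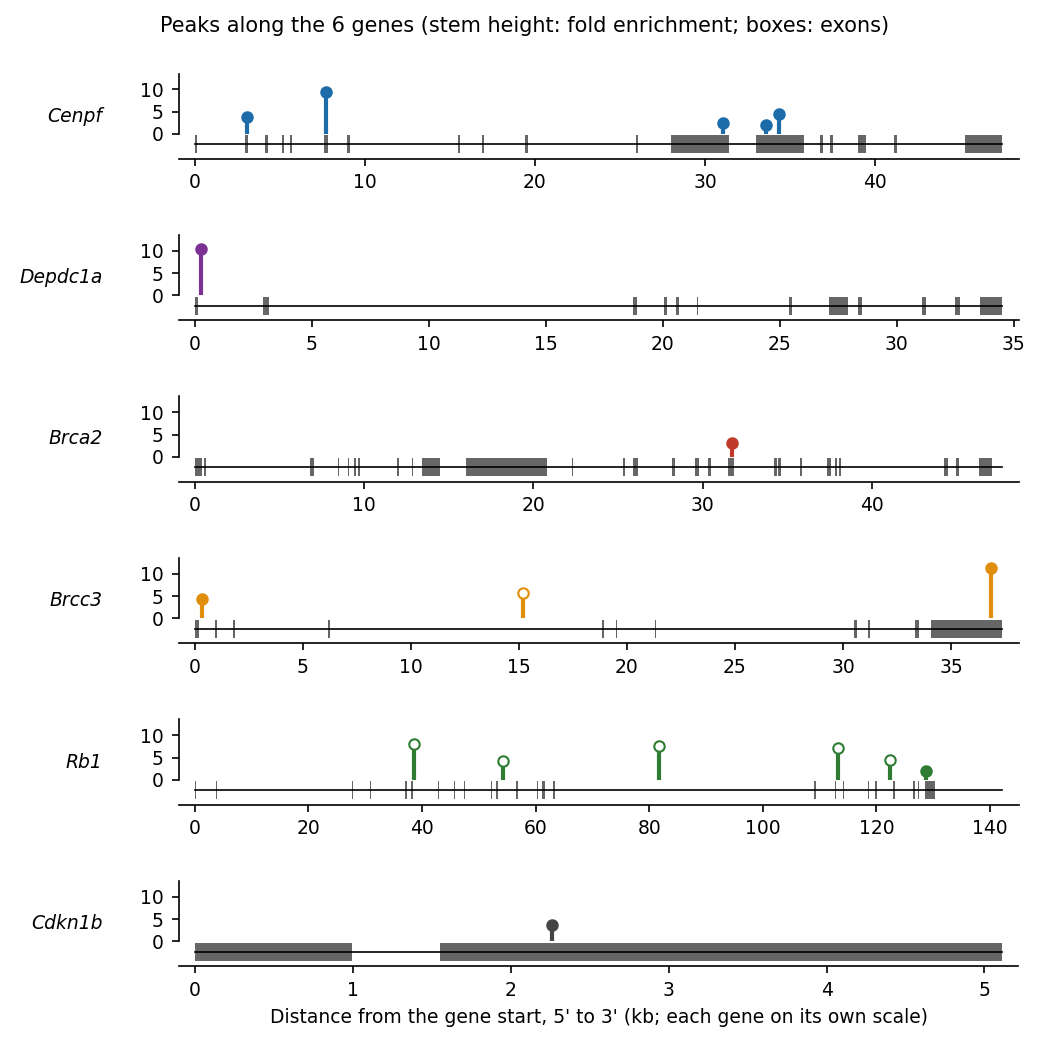
Position of the 17 peaks along the 6 genes, one row per gene, with distance from the gene start in kb on each horizontal axis and grey boxes for the exons. Each stem stands at a peak summit, with its height giving fold enrichment and a filled head marking the peaks of the authors' gene table. All 5 Cenpf peaks stand on exons, while 5 of the 6 Rb1 peaks stand between them.

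Depdc1a, a DEP-domain protein that human cells need for orderly mitosis, had a single peak at the 5′ end of its gene (chr3:159495433-159529955, plus strand). The peak (chr3:159495550-159495808) held 23 RIP fragments over an input background of 1.08, a fold enrichment of 10.4 (6.78 to 15.4), rank 12 in the table. The authors marked it as coding sequence. By the gene model only its first 17 bases, 6.56% of its length, were exonic, and the summit stood in intron 1, 132 bases past the exon edge. Those exonic bases, the end of exon 1 at chr3:159495550-159495566, and the 30 bases at the summit, chr3:159495684-159495713, are shown because most of the peak lay past the splice site.
Depdc1a exonic bases: accgggccaccaagctg
Depdc1a summit: cgagtgagccaaggcgcctagatttcggag
The protocol words the library steps after the pulldown for DNA, and whether DNA was removed is not given, so unspliced RNA and DNA cannot be told apart at such a peak. By the single transcript used per gene, 2 of the 11 table peaks considered here had the summit outside every exon, this one and peak 1 of Brcc3. Of the 1540 table peaks with a gene model, 8.64% had the summit outside every exon of all transcripts of the paired gene. That is a stricter measure, so the 2 figures are not like for like.

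Brca2, a tumour suppressor needed for the repair of double-strand breaks by homologous recombination, had 1 peak on its 10724-base mRNA. The peak (chr5:150554216-150554500) lay wholly in exon 18, at 79.3% of the coding sequence, and held 26 RIP fragments over an input background of 7. Its fold enrichment of 3.05 (2.04 to 4.41) was near the median of the table, at rank 859. Exon 11, the longest exon of the gene at 4809 bases, carried 0 deposited peaks. The GGACA in the sequence above had its A 8 bases upstream of the summit, the closest of any GGAC form to a summit among the 17 peaks.

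Brcc3, the lysine-63 deubiquitinase (BRCC36) of the BRCA1-A repair complex and of the cytoplasmic BRISC complex, had 3 peaks over its body (chrX:75416628-75454001, plus strand), 2 of them in the table. Peak 3 (chrX:75453398-75453633) lay deep in the 3′ UTR, 2832 bases past the stop codon, and held 25 RIP fragments over an input background of 1.08. Its fold enrichment of 11.3 (7.47 to 16.4) was the highest of the 17 peaks and rank 5 in the table. Only 27.5% of its bases were G or C, and it held none of the 3 GGAC forms.
Brcc3 peak 3 summit, chrX:75453476-75453505: atgctttgaggaaaattgaagtttttttca
Peak 1 (chrX:75416716-75417072) covered the start codon, held 42 fragments over 8, and had a fold enrichment of 4.31 (3.14 to 5.79). It covered the 123 coding bases shown above, but 231 of its 357 bases were intron 1 and the summit stood there, 123 bases from the exon edge. Peak 2 (chrX:75431756-75431962), outside the table, lay in intron 4 with 31 fragments over 4 and a fold enrichment of 5.78 (3.99 to 8.12).

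Rb1, the retinoblastoma pocket protein that restrains E2F factors and is needed for lasting cell cycle exit in muscle, had the most peaks over a body, 6, and only 1 of them in the table. That peak (chr14:73196879-73197140, the gene being on the minus strand) lay in the 3′ UTR, 175 bases past the stop codon. It held 98 RIP fragments over an input background of 42, the highest background of the 17, and its fold enrichment of 2.07 (1.69 to 2.52) was rank 1329 in the table. The neighbouring gene Rcbtb2, on the opposite strand, overlaps this peak and intron peak 5, so the strand of origin of these fragments cannot be told apart.
Rb1 peak 6 summit, chr14:73197022-73197051: aatggtagagaattgatagcacacaggatt

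The other 5 Rb1 peaks had their summits in introns 6, 11, 17, 19 and 23 and held 10 to 33 RIP fragments over backgrounds of 1.13 to 3. Their fold enrichments, in transcript order, were 8.06 (4.97 to 12.5), 4.30 (2.65 to 6.65), 7.67 (5.36 to 10.7), 7.11 (4.49 to 10.8) and 4.34 (2.31 to 7.62). The intervals of the second and the fifth overlap those of the rest, and 4 of the 5 lie wholly above that of the 3′ UTR peak, the exception being the fifth. The Rb1 body is 142150 bp long and 15.0% of all protein-coding genes had any deposited peak over the body. Of the 1582 protein-coding bodies at least that long, 36.0% had a peak and 9.73% had 6 or more. Peak 2, in intron 11 (chr14:73271401-73271671), is shown because its GGACT had the A 10 bases upstream of the summit.
Rb1 peak 2 summit, chr14:73271539-73271568: tggGGACTactagctgctctgtactaattg

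Cdkn1b, which encodes the cyclin-dependent kinase inhibitor p27, had 1 peak, in the 3′ UTR 589 bases past the stop codon (chr6:134922569-134922762, plus strand). It held 107 RIP fragments over an input background of 26, the most fragments of the 17 peaks. Its fold enrichment was 3.60 (2.96 to 4.35), rank 639 in the table, and by q-value it was rank 114. Of its bases, 77.8% were soft-masked as repeat in the reference, against a median of 8.40% over the 11 table peaks of the 6 genes and 9.80% over all table peaks.

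**Figure D2:**
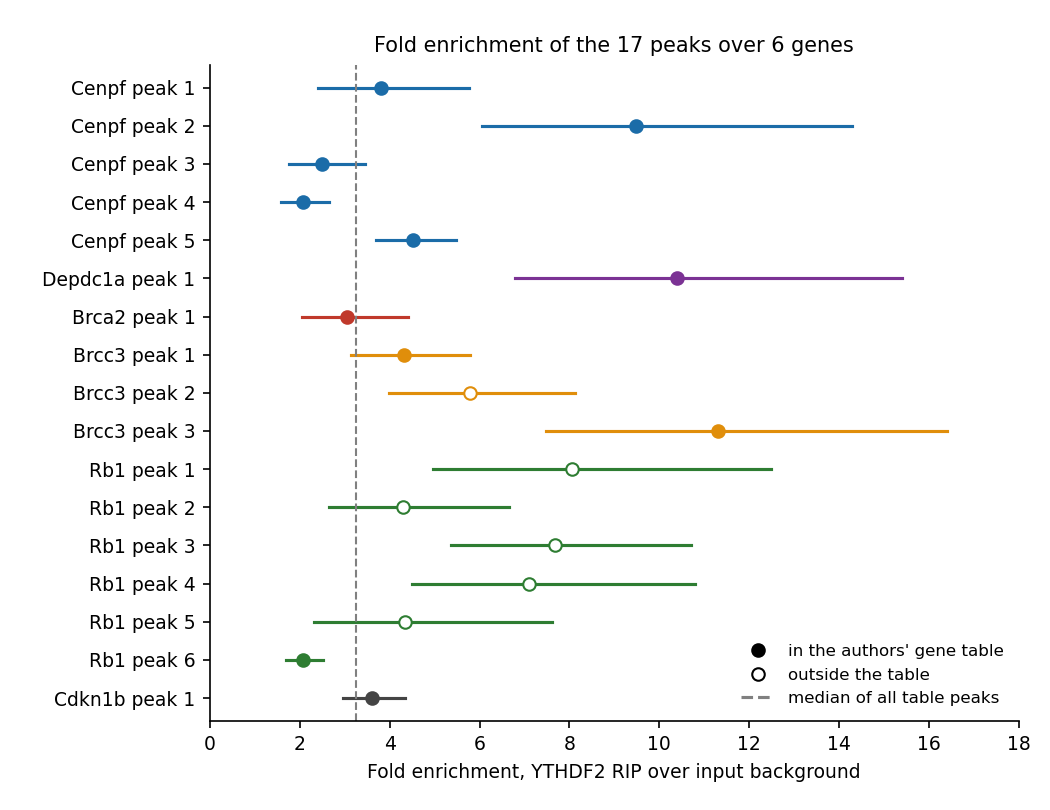
Fold enrichment of YTHDF2 RIP over input background for each of the 17 peaks, in transcript order within each gene. Points are the authors' values (filled in the gene table, open outside it), bars are 95% Poisson intervals of the RIP fragments, and the dashed line is the table's median of 3.25. The leading peaks of Brcc3, Depdc1a and Cenpf stand at 9.49 to 11.3 with wide bars that overlap, above Cdkn1b, Brca2 and Rb1 peak 6.

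By the highest fold enrichment of a table peak, the order was Brcc3 at 11.3, Depdc1a at 10.4, Cenpf at 9.49, Cdkn1b at 3.60, Brca2 at 3.05 and Rb1 at 2.07. The intervals of the first 3 overlapped, as did those of Cdkn1b with Brca2 and of Brca2 with Rb1, so the order of these neighbours was not resolved at this depth. The first 3 stood clear of the other 3. All of the first 3 rested on 21 to 25 RIP fragments over a background of 1.08 to 1.10, and 1.08 is the lowest in the list, shared by 45 table peaks. That shared value may be a floor set by the peak caller rather than input read at those summits, which was not tested. By q-value the order was Cenpf (peak 5), Cdkn1b, Brcc3, Depdc1a, Rb1 and Brca2, with −log10 q-values of 26.2, 20.8, 17.3, 14.9, 6.20 and 3.37. Cdkn1b and Cenpf peak 5 led by q-value with 107 and 102 fragments at moderate fold enrichments. In highest fold enrichment the table genes next to Brcc3 were Mtfmt at 11.4 above it and Gcc2 at 11.1 below, apart from a clone-named gene model with the same value. Depdc1a stood between Coa6 at 10.5 and Tmed5 at 10.4, Cenpf between Zfp959 at 9.56 and Pyurf at 9.48, and Cdkn1b between Cisd1 at 3.60 and Babam2 at 3.58.

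**Figure D3:**
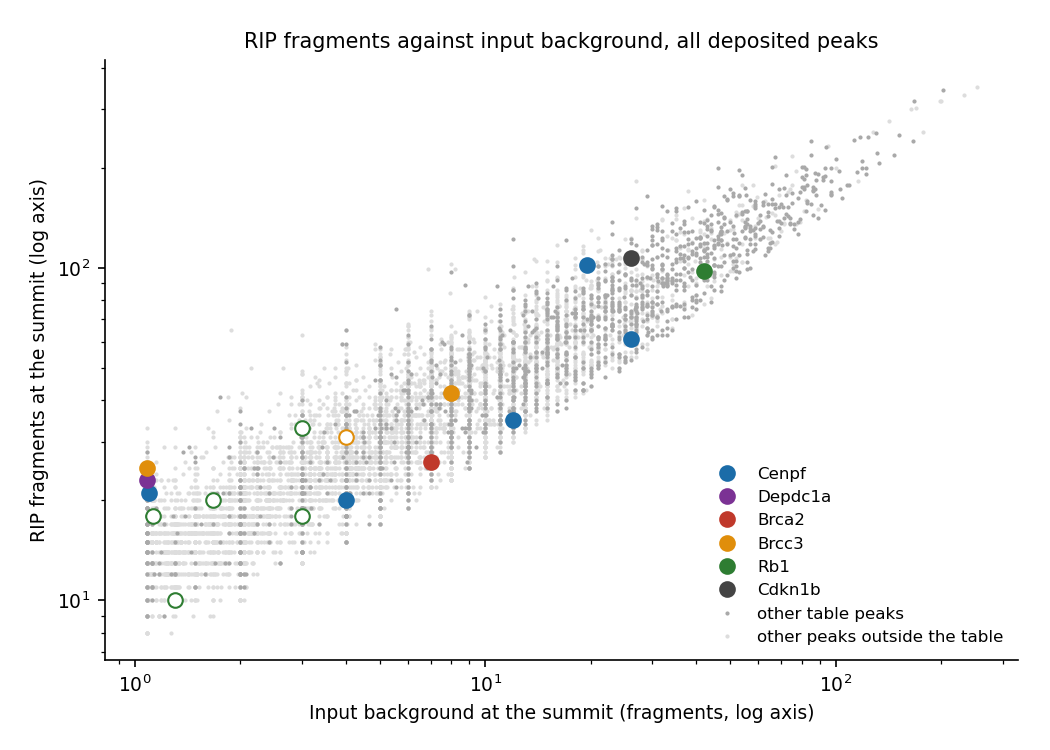
RIP fragments at the summit (vertical, log axis) against input background (horizontal, log axis) for all 9271 peaks, with the 17 peaks of the 6 genes as large points, filled when in the gene table. The leading peaks of Brcc3, Depdc1a and Cenpf sit at the left edge with 21 to 25 fragments over 1.08 to 1.10, and Cdkn1b, Cenpf peak 5 and Rb1 peak 6 sit at the upper right with 98 to 107.

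The authors' marks place 8 of the 11 table peaks on coding sequence, 2 on a start codon and on a 5′ UTR, 0 on a stop codon and 3 on a 3′ UTR. Over the whole table, 43.4% of peaks touched coding sequence (Wilson 95% interval 41.0 to 45.9), 7.20% a start codon, 16.0% a 5′ UTR, 15.8% a stop codon and 62.7% a 3′ UTR (60.2 to 65.1). Of the 8, 5 are in Cenpf and share that transcript. A GGAC form lay on the strand of the gene in 5 of the 11 table peaks, against 47.3% of all table peaks, and in 4 of the 6 peaks outside the table, against 42.6% of such peaks over bodies of 1 strand. The first count is near its background, and the second, of 6 peaks, is too small to read. Cenpf peak 1 had GGACA with its A 30 bases upstream of the summit and GGACT with its A 20 bases downstream. Cenpf peak 3 had GGACT at 45 and 56 bases downstream, and Cenpf peak 4 had GGACC 82 bases upstream. The leading peaks of Cenpf and Brcc3 and the Cdkn1b peak had none of the 3 forms. That says only that these letters are not in those windows.

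Repeat sequence recurred among the 17 peaks. The longest stretch held on either strand by at least 5 of them was TGTAGACCA, 9 bases long and found by comparing the peaks with one another after their sequences had been read. It lay in Brcc3 peaks 1 and 2, Rb1 peaks 3 and 4 and the Cdkn1b peak, and the 30 bases around it are shown with the stretch in capitals.
Cdkn1b peak 1, 3′ UTR, chr6:134922671-134922700, plus strand: gggaattgctcTGTAGACCAcgctggcttc
Brcc3 peak 1, intron 1, chrX:75416992-75417021, plus strand: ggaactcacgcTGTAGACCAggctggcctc
Brcc3 peak 2, intron 4, chrX:75431933-75431962, plus strand: tggcctggaactcactgTGTAGACCAggtt
Rb1 peak 3, intron 17, chr14:73244092-73244121, minus strand: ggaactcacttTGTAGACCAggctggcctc
Rb1 peak 4, intron 19, chr14:73212664-73212693, plus strand: gaactcgcttTGTAGACCAgactggcctca
In the first 4 the stretch is on the strand of the gene, and in Rb1 peak 4 it is on the other strand. These letters belong to the mouse B1 family of short interspersed repeats, which is present in very many copies in the genome. The middle of the stretch lay downstream of the summit by 23 bases in Cdkn1b, 43 in Brcc3 peak 1, 54 in Rb1 peak 3 and 128 in Brcc3 peak 2, and 45 bases upstream of it in Rb1 peak 4. All 5 peaks were 43.4% to 89.4% soft-masked. Among the 6 peaks outside the table the median soft-masked share was 59.2%, against 36.8% for all such peaks over bodies of 1 strand. The stretch was in 2 of the 11 table peaks, against 3.05% of all table peaks. It was in 3 of the other 6, against 14.4% of peaks outside the table over bodies of 1 strand. Since it was taken from these peaks, their counts are a description only. How fragments that match many genomic copies were placed is not given in the sources used here, and its part in these 5 peaks was not tested.

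The pathways around the 6 genes were described with 13 lists of 328 protein-coding genes in all. Of these, 44 had a table peak, which is 13.4% (Wilson 95% interval 10.1 to 17.5), against 5.83% of all 21938 protein-coding genes. The 6 genes had been chosen for having one, and without them 38 of 322 did, 11.8% (8.72 to 15.8). The lists themselves were chosen with earlier results of these data known, so these shares are a description. The lists below are given without the 6 genes. The highest fold enrichment of these 38 genes had a median of 3.56, against 3.42 over all genes of the table. Their leading peaks were marked on a 3′ UTR in 25 (65.8%, against 63.2% of table genes) and on coding sequence in 18 (47.4%, against 43.8%), some on both. More than 1 table peak was held by 7 of the 38 (18.4%), against 218 of the 1284 table genes (17%). Expression was not measured here, and its part in these shares was not tested.

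Among centromere and kinetochore genes other than Cenpf, 4 of 37 had a table peak. These were Ska2, which couples kinetochores to microtubules, at 5.68 (4.53 to 7.05), the kinetochore motor Cenpe at 4.71 (3.48 to 6.25), Mis12 at 2.51 and Cenph at 2.41. Cenpe, like Cenpf a very large kinetochore protein, had 2 table peaks and its leading peak was also on coding sequence. Of 33 spindle checkpoint genes, mitotic kinases and motors other than Depdc1a, 1 had a table peak, the spindle motor Kif11 at 4.37 (3.15 to 5.93). In the anaphase-promoting complex, 2 of 16 subunits had a table peak, Anapc10 at 13.8 and Cdc27 at 2.62. In homologous recombination 5 of 24 genes other than Brca2 did, among them the helicase Brip1 at 5.43 (3.30 to 8.50), Rad50 of the break-sensing complex at 5.21 (3.91 to 6.82), Rad52 at 4.53 and the Brca2-binding protein Sem1 at 3.97. The recombination share of 20.8% (9.24 to 40.5) had an interval wholly above 5.83%, as did those of cyclins and cyclin-dependent kinases (9.74 to 32.6) and of cohesin and condensin (10.1 to 43.4). The intervals of the other 10 lists held 5.83%.

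Of the 6 BRCA1-A and BRISC subunits other than Brcc3, 1 had a table peak, Babam2 at 3.58 (1.95 to 6.14). Of the 19 pocket protein, E2F and DREAM genes other than Rb1, 3 did, and the atypical repressor E2f8 reached 9.78 (6.83 to 13.6) in its 3′ UTR, with Lin52 at 4.62 and E2f6 at 4.29. Of the 7 cyclin-dependent kinase inhibitor genes other than Cdkn1b, 0 had a table peak. Of the 43 cyclins and cyclin-dependent kinases 8 had one, led by Ccnc at 4.80, Cdk13 at 4.30, Ccnb2 at 3.98 and Ccnh at 3.12. Cohesin and condensin genes gave 5 of 22, with Smc5 at 4.07, Smc6 at 3.41, Esco1 at 3.31 and Nipbl at 3.11. Replication licensing and fork genes gave 4 of 39, led by the licensing inhibitor Gmnn at 5.71 (4.51 to 7.13), then Orc6 at 3.54, Mcm9 at 3.36 and Tipin at 3.29. DNA damage signalling gave 2 of 19, Rnf8 at 2.35 and Mdm2 at 2.21. Mismatch, excision and end joining repair gave 2 of 39, Polb at 6.54 and Ercc5 at 2.06, and the Fanconi group 1 of 18, Fancm at 3.01.

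**Figure D4:**
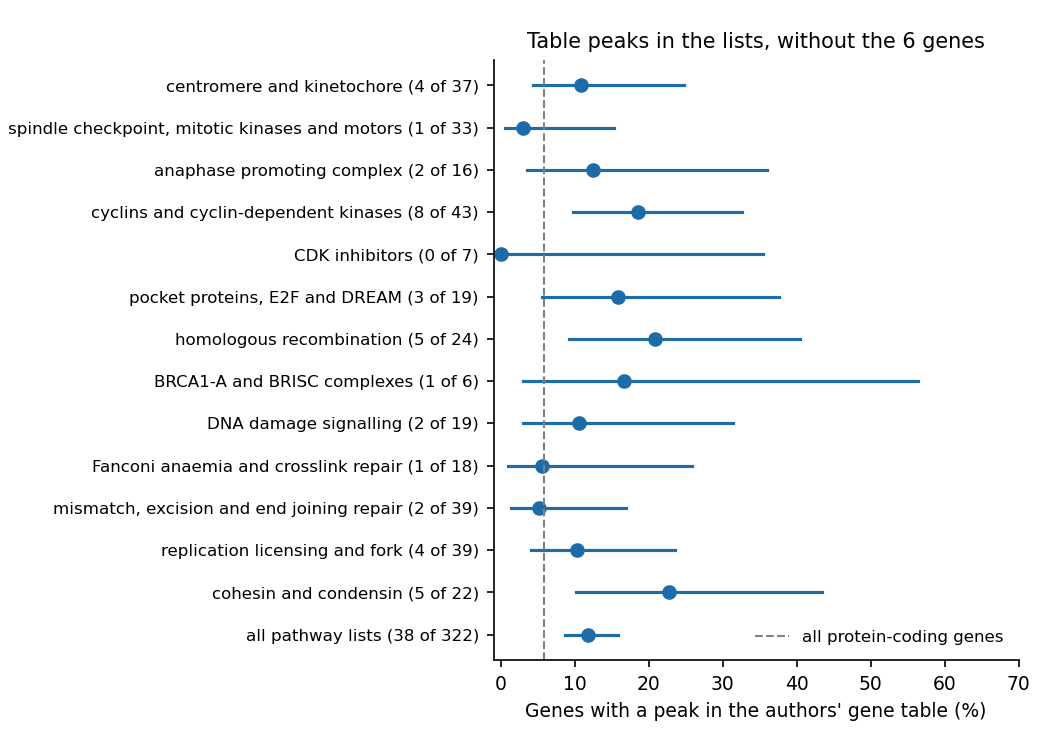
Percent of the genes in each of 13 cell cycle and repair lists, without the 6 genes, that had a peak in the authors' gene table, with Wilson 95% intervals over genes and the number of genes beside each name. The dashed line is the 5.83% of all protein-coding genes, and the bottom row gives all lists together, 38 of 322 or 11.8%.

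The tissue label was set against marker lists. Of 32 skeletal myotube markers, 5 had a table peak, with Mylpf at 4.22, Neb at 3.44, Tnnt1 at 3.04 and Trdn at 2.84. The myotube share was 15.6%, with a Wilson interval of 6.86 to 31.8 that lay wholly above the 5.83% of all protein-coding genes. Of 18 markers of proliferating cells 1 had a table peak, Cenpf, which is 5.56% (0.988 to 25.8), against 5.83% of all protein-coding genes. Cenpf is 1 of the 6 genes chosen for having a table peak, so that share was raised by the choice. No other gene of that list had a table peak. Peaks over the body were found for 6 of the 32 myotube markers (18.8%), against 15.0% of all protein-coding genes. They were also found for 3 of the 18 proliferation markers (16.7%), Cenpf among them. Hepatocyte and immune markers, 14 each, had 0 table peaks and 0 peaks over their bodies. For table peaks the interval of each of these lists was 0 to 21.5%, which holds 5.83%, so the 0 sets neither apart. Peaks mark RIP signal over input, not expression, and in a bulk culture the number of cells of a type and the RNA per cell cannot be told apart.

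The authors' deposited table of Gene Ontology terms listed 113 peak genes among 1049 annotated to the cell cycle, where 64.4 were expected (FDR 1.86e-07), and 5 of the 6 genes were among them, Depdc1a being the exception. For DNA repair, with Brca2 and Brcc3, the authors' deposited table gave 37 of 295 where 18.1 were expected (FDR 0.00117). For cell cycle arrest, with Brcc3, Rb1 and Cdkn1b, the authors' deposited table gave 26 of 217 where 13.3 were expected (FDR 0.0185). Of narrower terms in the authors' deposited table, double-strand break repair had an FDR of 0.01 and chromosome segregation 0.0229. Kinetochore, with Cenpf, had an FDR of 0.112 there, and double-strand break repair via homologous recombination, with Brca2, 0.242. The BRISC and BRCA1-A complexes, with Brcc3, had FDRs of 0.383 and 0.566. Of the KEGG pathways in the authors' deposited table, Cell cycle, with Rb1 and Cdkn1b, stood at 12 of 114 where 6.63 were expected (FDR 0.209), and Homologous recombination, with Brca2, at 4 of 25 where 1.45 were expected (FDR 0.257). The 6 genes were picked from the genes these terms were computed on, so the terms are no independent evidence.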

How the data were processed

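One YTHDF2 RIP library and 1 input library of C2C12 myotubes were compared. The authors used Bowtie for alignment to mm10 and MACS for peaks, per the labels. The submitters' processing notes also name DiffBind, deepTools, HOMER, Picard, Trim Galore and FastQC, with no version. The authors deposited for each peak its pileup (a signal read at the summit), a fold enrichment (a ratio) and −log10 of the p-value and q-value, per the file headers. Their enrichment tables hold numbers of annotated, peak and expected genes per term, a p-value and an FDR, per the file headers.

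All pileups were whole multiples of 0.9 (tolerance 1e-06), so 1 step was read as 1 RIP fragment, and background was computed as (pileup + 1) / fold − 1. Peaks were assigned to bodies by an overlap of at least 1 bp and placed on GENCODE M21 models (GRCm38, the build of mm10), using per gene the coding transcript of longest coding sequence among those with a CCDS tag. Of the 1285 genes in the table, 1269 were matched by symbol, 12 by synonym, 3 by position and 1 was not matched. Sequences are from RefSeq GRCm38.p6. Intervals are exact Poisson for fragments and Wilson for shares of genes or peaks. The members and gene lists were chosen with earlier results of these data known. The text names the 6 genes with all their peaks, up to 4 other genes per list by fold enrichment, the table genes nearest in fold enrichment, and genes overlapping a member's peak. Alternatives were the gene table alone, overlap by most of the peak, summits in exons, minimum fold enrichment of 4, minimum −log10 q of 5, no 1 added, peak centres for elements, GGACT alone, and 100 bases around the summit for motifs. Overlap, motif search, spliced positions and intervals were tested on simulated data. Python 3.11.15, pandas 2.3.3, numpy 2.4.6, scipy 1.17.1 and matplotlib 3.10.9 were used.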

Additional observations from a re-analysis of the deposited data

How the results depend on the processing

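With 1 library on each side, no replicate could be left out, and no paired analysis was possible because RIP and input have 1 library each and no test was made. The 17 peaks over the 6 bodies became 11 when restricted to the authors' gene table, 9 with the summit in an exon, 11 with a minimum fold enrichment of 4 and 11 with a minimum −log10 q of 5, and they stayed at 17 when most of the peak had to lie in the body. The median over the 6 genes of the highest fold enrichment was 6.54, and 10.4 without the 1 added to pileup and background, where Brcc3 came to 20.8, Depdc1a to 19.1 and Cenpf to 17.2, since their backgrounds are near 1. With every peak over the bodies it was 8.78, and Rb1 moved to 8.06 against 2.07 in the table. The 44 pathway genes with a table peak became 18 with a minimum fold enrichment of 4, 35 with a minimum −log10 q of 5 and 91 with every peak over the body. Without the 6 genes, 38 became 15, 30 and 85. The 85 are 26.4% of 322, against 15.0% of all protein-coding genes with a peak over the body. For the minimum fold enrichment and the minimum −log10 q, the share of all protein-coding genes is not given here. The 5 table peaks with a GGAC form became 2 with GGACT alone and 3 within 100 bases around the summit. The 8 peaks on coding sequence became 6 by peak centre. Depth limits the leading folds of Brcc3, Depdc1a and Cenpf, which rest on 25, 23 and 21 RIP fragments.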

Other observations

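Several pathway genes carried many deposited peaks over the body and few or none in the authors' gene table, and the genes named here were chosen after their values were seen. Of all 9271 deposited peaks, 7730 lay outside the gene table, so this pattern is not particular to these genes. The cohesin loader Nipbl had 19 peaks over its body and 3 in the table, and the cohesin subunits Stag1 and Stag2 had 17 and 9 over their bodies and 0 in the table. Cdk14 had 17 and Cdk13 had 14 over the body, against 0 and 2 in the table. The centromere protein Cenpp had 9 over the body and 0 in the table. In this they resembled Rb1, with 6 over the body and 1 in the table, more than Cenpf, whose 5 peaks were all in the table. The part of body length in these counts was not tested.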
